A study of Mus musculus with 32 samples.

Results

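Immunoglobulin heavy and light chain transcripts were followed across 3 experiments on mouse B-lineage cells built around the transcription factor Ebf1. The members were all probe sets (groups of short probes that report on 1 transcript) whose annotated gene symbols included an immunoglobulin heavy chain (Igh), kappa light chain (Igk) or lambda light chain (Iglc, Iglv or Iglj) symbol, with Ighmbp2, an unrelated helicase gene, left out. They numbered 56 of the 45101 probe sets on the array, with 23 for the heavy chain, 29 for kappa and 4 for lambda. By symbol, 18 named only constant genes (11 Ighm, 4 Ighg3 and 3 Igha), 26 named only variable genes, 8 named both kinds and 4 named the Igk locus with no segment. No member named Ighd, Ighe, Ighg1, Ighg2b or Ighg2c.

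An antibody consists of heavy and light chains, and each chain joins a variable region, which binds antigen, to a constant region. Variable genes are assembled in developing lymphocytes by V(D)J recombination, heavy chain first in pro-B cells and then a kappa or lambda light chain in pre-B cells, so that a B cell and its clonal progeny normally carry a single productive heavy chain variable exon and a single light chain. Ighm encodes the mu constant region made first, and Igha and Ighg3 encode the constant regions of IgA and IgG3, which B cells adopt by class switching. Transcripts can also start upstream of unrearranged constant and variable genes. The annotation gives no probe positions, so whether a probe set annotated as Ighm reads constant exons or a rearranged variable exon joined to them cannot be told here, and 21 of the 56 have identifiers ending in _x_at or _s_at, which marks probes that can match several genes.

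The first experiment held enlarged lymph nodes of C57BL/6 mice of about 30 weeks with the genotype Ebf1+/-Pax5+/-, heterozygous for Ebf1 and for Pax5, another B-cell transcription factor. Cells of 8 nodes, numbered 277, 278, 279, 292, 317, 327, 381 and 383, were sorted for viability after thawing, with no sort on a B-cell marker stated, and 1000000 cells of each were measured on 2 arrays. Their controls were 2 samples of 1000000 sorted wild-type C57BL/6 pro-B cells. In the second experiment the 230238 pre-B cell line, a single line, was infected with pMIG-Ebf1-engrailed, a vector for Ebf1 fused to the Engrailed repressor domain (3 samples), or with empty pMIG (3 samples), and GFP-positive cells were sorted. In the last experiment, Ebf1-/- cells from E14.5 fetal liver were expanded on OP9 stromal cells with KIT ligand, FLT3L and IL-7 and infected with pMIG-Ebf1-ER, an Ebf1 that 4-hydroxytamoxifen activates. They were harvested at 0 h without the drug and after 6, 12 and 24 h with 0.1 uM of it, on 2 arrays per time, so all 4 groups lacked endogenous Ebf1 and carried the same vector. The cell line and Ebf1-ER experiments used 500000 cells per sample. The log2 expression values are differences from a centre and not levels, so probe sets cannot be ranked by abundance. Every probe set had a median of 0 within the cell line and Ebf1-ER experiments, and 35 of the 56 members did within the tumour experiment, where the centre of the others is not given. The sources do not say which replicates were separate cultures or animals, so the p-values below reflect the spread among these samples alone, which can be technical.

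The tumour experiment was checked against its labels first. Of 5 Ebf1 probe sets, 4 fell in the lymph nodes by 0.72 to 1.01 on the log2 scale, and 1457441_at rose by 4.48 ± 0.18 (limma standard error, adjusted p = 8.11e-08). Against the wild-type pro-B samples, 8.26% of all probe sets rose in the nodes and 7% fell. The wild-type pro-B arrays stood apart in myeloid markers. Over 14 myeloid probe sets the mean value was -0.92 to 0.85 in the 8 nodes, against 3.40 and 3.60 in the pro-B samples, and 10 of the 14 fell in the nodes, none rose, and the median change was -2.43. Among them were Mpo (-7.21 ± 0.20), a granule enzyme of neutrophil precursors, and S100a9 (-7.99 ± 1.45), a calcium-binding protein of neutrophils. The mean of 21 stromal probe sets was -0.067 to 0.083 in the nodes, against 0.466 and 0.842 in the pro-B samples, and 6 of them fell. Among the nodes, LN 279 had the highest mean of 23 T-cell probe sets, 2.09 against -0.73 to 0.85 in the other 7, and of 26 mature B-cell probe sets, 1.15. In bulk samples a smaller share of cells of a type and less RNA per cell cannot be told apart.

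The 8 tumour lymph nodes differed from each other in most of the immunoglobulin probe sets. Of the 56, 44 passed limma's moderated F test between nodes at an adjusted p under 0.05, where the yardstick is how far apart the 2 arrays of each node lie. Over the whole array 54.1% of probe sets passed the same test, and among the members the share was 78.6%. Those that passed were 16 of 18 constant, 20 of 26 variable, 5 of 8 with both kinds of symbol and 3 of 4 Igk locus probe sets. The range of the node means had a median of 1.57 over the 56 members and reached 7.83, whereas the largest difference between 2 arrays of a node had a median of 0.391 over the members. The 12 that did not pass had ranges of 0.194 to 0.556.

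**Figure D1:**
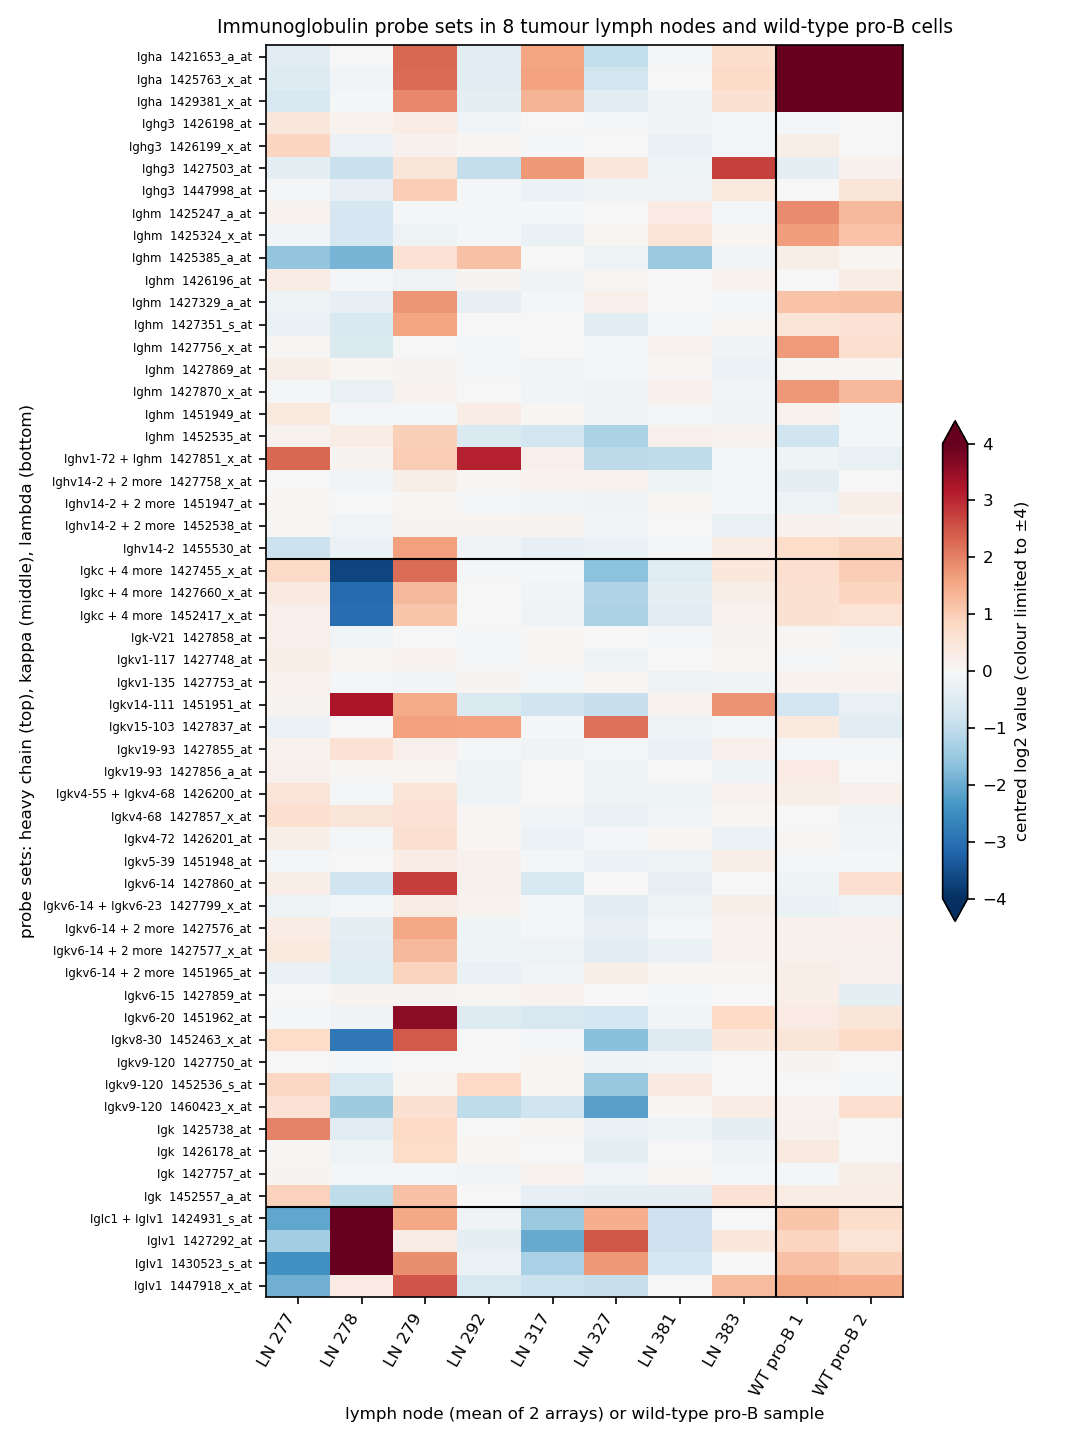
Centred log2 values of the 56 immunoglobulin probe sets (rows: heavy chain above, kappa in the middle, lambda below) in 8 tumour lymph nodes (columns, mean of 2 arrays each) and 2 wild-type pro-B samples at the right, with colour limited to 4 either way. LN 278 is low in the Igkc rows and high in 3 lambda rows, LN 279 is high in many kappa rows, and the 3 Igha rows are high in the pro-B samples.

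Of the 4 lambda light chain probe sets 3 had the widest ranges of all members. Iglv1 1430523_s_at, for a lambda variable gene, stood at 5.40 in LN 278, at 1.85 in LN 279, at 1.72 in LN 327, at 0.00 in LN 383, at -0.23 in LN 292, at -0.70 in LN 381, at -1.31 in LN 317 and at -2.43 in LN 277, and at 1.16 and 0.96 in the pro-B samples. LN 278 was thus far above every other node and both pro-B samples, and LN 277 was the lowest. The F test between nodes gave an adjusted p of 2.33e-12, and the 2 arrays of a node differed by at most 0.181.

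The probe set 1424931_s_at, annotated to Iglc1, a lambda constant gene, and to Iglv1, ordered the nodes in the same way at both ends, with 5.28 in LN 278, 1.54 in LN 279, 1.44 in LN 327, 0.00 in LN 383, -0.15 in LN 292, -0.84 in LN 381, -1.49 in LN 317 and -2.07 in LN 277, against 1.10 and 0.70 in the pro-B samples (adjusted p = 2.27e-11). A second Iglv1 probe set, 1427292_at, stood at 4.40 in LN 278 and 2.49 in LN 327, between -2.02 and 0.43 in the other 6 nodes, and at 0.86 and 0.54 in the pro-B samples (adjusted p = 1.31e-09). The last Iglv1 probe set, 1447918_x_at, departed from this order. It was highest in LN 279 at 2.53 and LN 383 at 1.27, stood at 0.32 in LN 278 and at -0.91 in LN 327, and was lowest in LN 277 at -1.93 (adjusted p = 2.67e-09).

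Kappa constant probe sets were lowest in LN 278 and next lowest in LN 327, which were the highest node and 1 of the next 2 for 3 of the 4 lambda probe sets. The 3 probe sets that name Igkc, the single kappa constant gene, also name 3 variable genes and the joining segment Igkj1. Of these, 1427455_x_at stood at -3.68 in LN 278, -1.64 in LN 327, -0.47 in LN 381, -0.04 in both LN 292 and LN 317, 0.42 in LN 383, 0.76 in LN 277 and 2.25 in LN 279, against 0.69 and 0.99 in the pro-B samples (adjusted p = 2.96e-12). LN 292 and LN 317 did not differ beyond the spread between arrays, which was at most 0.133, and LN 279 alone lay above both pro-B samples.

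The other Igkc probe sets kept LN 278 and LN 327 at the bottom and LN 279 at the top. For 1427660_x_at they stood at -3.08, -1.19 and 1.29 in those 3 nodes (adjusted p = 2.41e-11), and for 1452417_x_at at -3.04, -1.26 and 1.11 (adjusted p = 3.34e-11). Igkv8-30 1452463_x_at, annotated to a kappa variable gene alone, followed them, with -2.86 in LN 278, -1.68 in LN 327 and 2.45 in LN 279 (adjusted p = 8.24e-12). It shares the Igkv8-30 symbol with the Igkc probe sets, so the 4 are not independent readings. Over all 29 kappa probe sets, 23 were lowest in LN 278 or LN 327 and 16 were highest in LN 279. These counts include kappa probe sets that did not pass the test between nodes, which 22 of the 29 passed. The same counts over the whole array were not made.

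**Figure D2:**
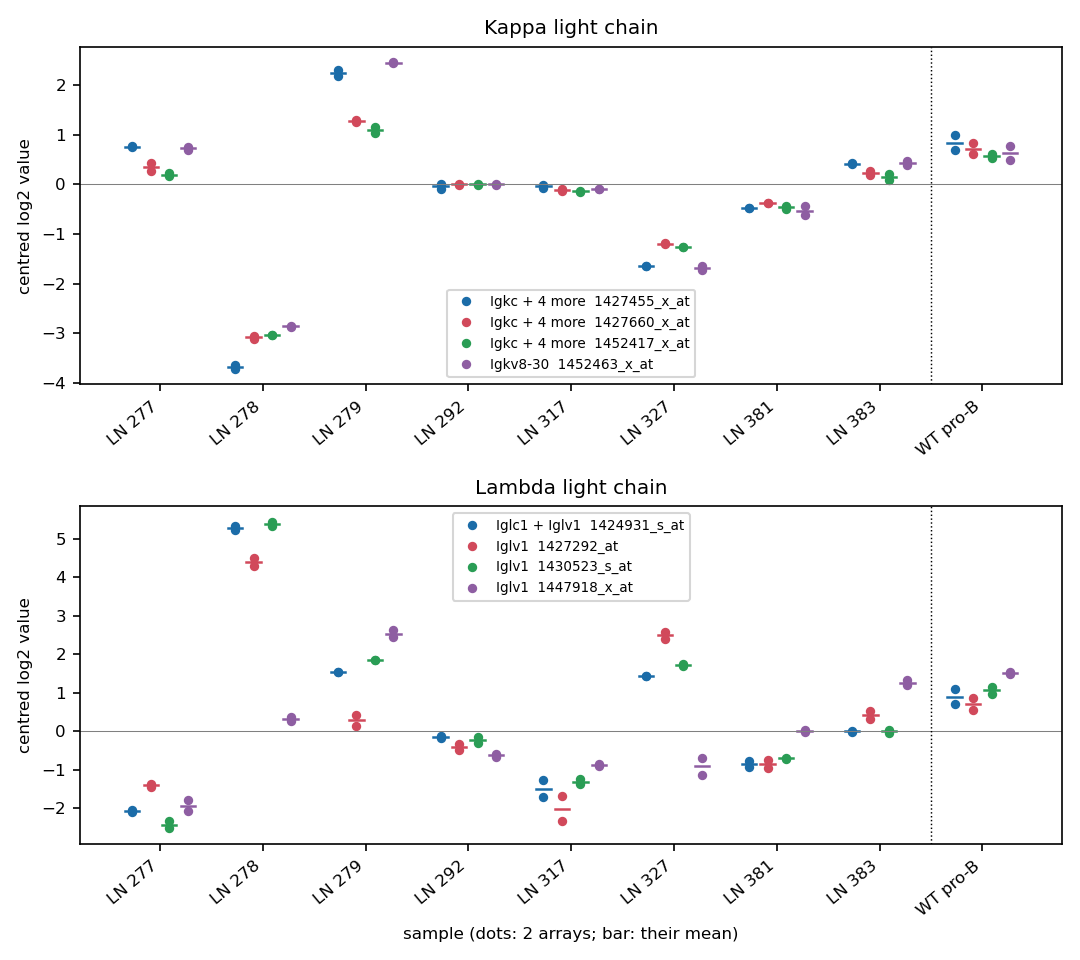
Centred log2 values of 4 kappa probe sets (upper panel) and the 4 lambda probe sets (lower panel) in the 8 tumour lymph nodes and, at the right, wild-type pro-B cells, with dots for the 2 arrays and bars for their mean. LN 278 has the lowest kappa values, at -2.86 to -3.68, and the highest values of 3 lambda probe sets, at 4.40 to 5.40.

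Kappa variable probe sets stood out in different nodes. Igkv14-111 1451951_at was highest in LN 278 at 3.26, the node with the lowest Igkc values, followed by 1.79 in LN 383 and 1.47 in LN 279, and the other 5 nodes lay between -0.93 and 0.14 (adjusted p = 1.47e-10). Igkv6-20 1451962_at stood at 3.58 in LN 279 and at no more than 0.81 in the other 7 (adjusted p = 3.7e-08). Igkv6-14 1427860_at stood at 2.76 in LN 279 and at no more than 0.27 in the others (adjusted p = 7.34e-08).

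Igkv15-103 1427837_at was raised in 3 nodes, with 2.21 in LN 327, 1.65 in LN 279 and 1.62 in LN 292, while the other 5 lay between -0.23 and 0.02 (adjusted p = 7.51e-09). LN 279 and LN 292 were close to each other. Igkv9-120 1460423_x_at was lowest in LN 327 at -2.18 and in LN 278 at -1.42 and reached 0.62 in LN 279 (adjusted p = 2.42e-07). Of the other Igkv9-120 probe sets, 1452536_s_at was lowest in LN 327 at -1.52 and highest in LN 277 at 0.82, and 1427750_at did not pass the test (adjusted p = 0.436). Of the probe sets annotated to the Igk locus alone, 1425738_at was highest in LN 277 at 1.97, with 0.79 in LN 279 and no more than 0.04 in the other 6 (adjusted p = 1.53e-06). By contrast, 1452557_a_at and 1426178_at were highest in LN 279, at 1.16 and 0.73, and 1427757_at did not pass the test.

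LN 279 had the highest value of 26 of the 56 probe sets (16 of 29 kappa, 9 of 23 heavy chain and 1 lambda) and the lowest of none. It was also the node with the highest T-cell and mature B-cell marker means given above, and with the highest means of the myeloid (0.854), plasma cell (0.272) and immunoglobulin secretion (0.394) lists. The part of these in the immunoglobulin values was not tested. How often LN 279 was the highest node over the whole array was not counted. The 26 include probe sets that did not pass the F test. Without LN 279 the F test passed 42 of the 56, of which 41 were among the original 44.

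Heavy chain probe sets with a variable gene differed as well. The probe set 1427851_x_at, annotated to the variable gene Ighv1-72 and to Ighm, stood at 3.09 in LN 292, 2.30 in LN 277, 1.03 in LN 279, 0.20 in LN 317, 0.10 in LN 278, -0.08 in LN 383, -1.02 in LN 381 and -1.05 in LN 327, against -0.17 and -0.28 in the pro-B samples (adjusted p = 2.11e-09). LN 292 and LN 277 were thus high, and LN 381 and LN 327 were close to each other at the low end. Ighv14-2 1455530_at was highest in LN 279 at 1.64 and lowest in LN 277 at -0.86.

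Constant heavy chain probe sets also differed between nodes, and not in the same order as each other. Ighg3 1427503_at stood at 2.73 in LN 383, 1.72 in LN 317, 0.48 in LN 279, 0.45 in LN 327, -0.20 in LN 381, -0.35 in LN 277, -0.90 in LN 278 and -0.97 in LN 292 (adjusted p = 4.92e-11). LN 383 and LN 317 were separate from the rest and from the pro-B samples, at -0.40 and 0.16. The other 3 Ighg3 probe sets did not follow it. Of these, 1447998_at was highest in LN 279 at 0.98 (adjusted p = 0.000227), and 1426199_x_at was highest in LN 277 at 0.85 (adjusted p = 0.0242), a call lost without LN 277 (adjusted p = 0.297).

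The 11 Ighm probe sets held several patterns. Ighm 1427329_a_at stood at 1.78 in LN 279 and between -0.34 and 0.19 in the other 7 nodes (adjusted p = 1.68e-09), and 1427351_s_at at 1.57 in LN 279 and between -0.60 and 0.05 in the others (adjusted p = 1.49e-09). By contrast, 1425385_a_at was highest in LN 292 at 1.18 and lowest in LN 278 at -1.86, LN 277 at -1.57 and LN 381 at -1.48 (adjusted p = 3.19e-10). Ighm 1452535_at stood at 0.96 in LN 279 and at -1.26 in LN 327 (adjusted p = 2.95e-05).

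Set against wild-type pro-B cells, the nodes had lower Igha and part of Ighm, and no immunoglobulin probe set passed the test as higher. Of the 56, 7 passed in limma's test of 8 node means against 2 pro-B samples, all of them lower. By symbol all 7 named only constant genes: 3 of 3 Igha, 4 of 11 Ighm and 0 of 4 Ighg3. Without probe positions, whether the Ighm ones read constant exons cannot be told. The 7 are 12.5% of the members, against 15.3% of all probe sets (8.26% higher and 7% lower), so the count as a whole was near the background. At an unadjusted p under 0.05 there were 8. The median change was -0.14 over the 56 members and 0.005 over all probe sets. The nodes and the pro-B samples differ at once in genotype, tumour state, cell source and sorting, which cannot be told apart here.

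Igha 1421653_a_at stood at -0.44 in LN 277, -0.01 in LN 278, 2.31 in LN 279, -0.42 in LN 292, 1.57 in LN 317, -0.99 in LN 327, -0.04 in LN 381 and 0.71 in LN 383, against 4.24 and 4.77 in the pro-B samples. All 8 nodes lay below both pro-B samples, with LN 279 and LN 317 the nearest. The mean was 0.34 ± 1.12 in the nodes (SD, n = 8) and 4.50 ± 0.37 in pro-B cells (SD, n = 2), a log2 change of -4.16 ± 0.74 (standard error, limma adjusted p = 0.00473), or 17.9-fold lower. The other Igha probe sets changed alike, 1425763_x_at by -4.08 ± 0.73 (adjusted p = 0.0049) and 1429381_x_at by -3.95 ± 0.61 (adjusted p = 0.00237).

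These calls rest on few pro-B arrays that also carried the myeloid and stromal markers described above, whose part in the Igha and Ighm differences was not tested. Without pro-B sample 2, Igha 1421653_a_at and 1425763_x_at missed the threshold (adjusted p = 0.0768 and 0.083). Quantile normalization, which forces the centred values of every array to 1 distribution, gave changes of -2.02, -1.96 and -1.94 for the 3 probe sets, none of them called (adjusted p = 0.176, 0.187 and 0.111). Between nodes all 3 differed (adjusted p = 2.37e-10, 2.11e-09 and 1.27e-08).

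For Ighm, 1427870_x_at had a lowest, median and highest node value of -0.28, -0.08 and 0.19, against 1.73 and 1.30 in the pro-B samples. The groups did not overlap, and the log2 change was -1.56 ± 0.14 (adjusted p = 5.95e-05). It was among the 12 members that did not pass the test between nodes. Ighm 1425247_a_at ranged from -0.66 to 0.31 in the nodes, against 1.89 and 1.31 in the pro-B samples, a change of -1.66 ± 0.22 (adjusted p = 0.000896). Ighm 1425324_x_at changed by -1.49 ± 0.25 (adjusted p = 0.00354) and 1427756_x_at by -1.25 ± 0.24 (adjusted p = 0.0073), and their nodes also lay below both pro-B samples, which stood at 1.68 and 1.14 for the one and at 1.69 and 0.63 for the other. Both calls were lost without pro-B sample 1 (adjusted p = 0.06 and 0.0874) and under quantile normalization (adjusted p = 0.0959 and 0.0532).

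The other Ighm probe sets were not called. Ighm 1427329_a_at stood between -0.34 and 0.19 in 7 nodes and at 1.78 in LN 279, against 1.15 and 1.17 in the pro-B samples. Only LN 279 lay above them, and the change was -1.03 ± 0.45 (adjusted p = 0.164). Ighm 1427351_s_at had the same form, with a change of -0.51 ± 0.44 (adjusted p = 0.495). Without LN 279 both passed, at -1.26 (adjusted p = 0.00046) and -0.73 (adjusted p = 0.0239), and the count of lower members became 10. Ighm 1425385_a_at (-0.58 ± 0.72, adjusted p = 0.652) and 1452535_at (0.33 ± 0.48, adjusted p = 0.708) overlapped the pro-B samples.

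**Figure D3:**
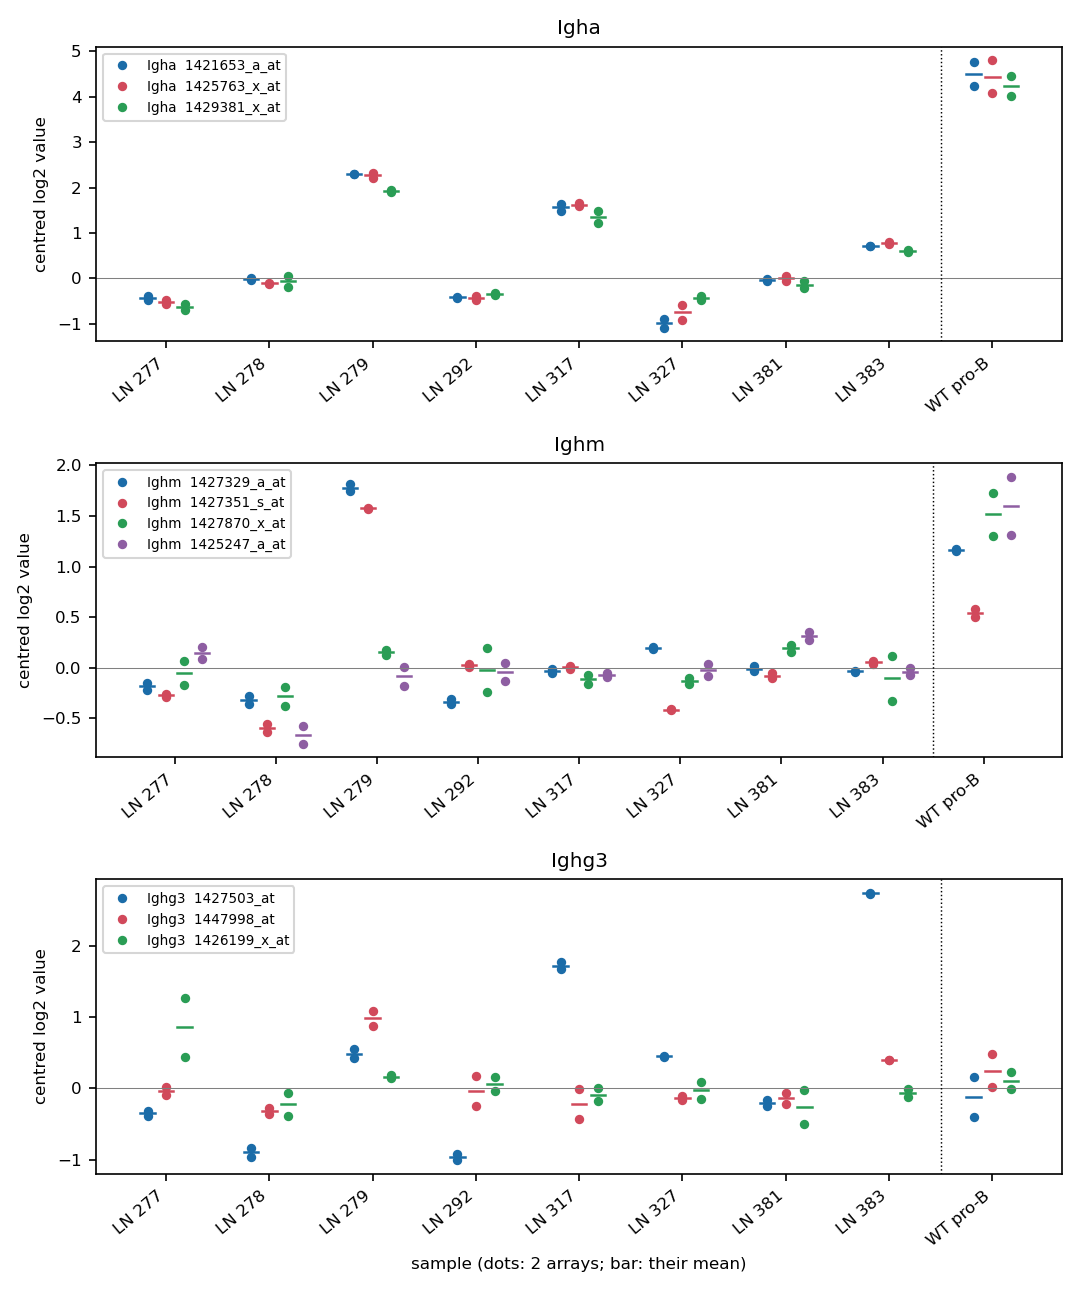
Centred log2 values of Igha, Ighm and Ighg3 probe sets in the 8 tumour lymph nodes and, at the right, wild-type pro-B cells, with dots for arrays and bars for the mean of 2. The Igha nodes lie between -0.99 and 2.31 on 1421653_a_at, below pro-B values of 4.24 and 4.77, and Ighg3 1427503_at is highest in LN 383 and LN 317.

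Ighg3 gave no call against pro-B cells, with changes of 0.49 ± 0.85 for 1427503_at (adjusted p = 0.76), -0.185 ± 0.297 for 1447998_at (adjusted p = 0.738) and -0.06 ± 0.24 for 1426199_x_at (adjusted p = 0.905). None of the 29 kappa or 4 lambda probe sets was called either. Their changes ran from -1.14 to 1.09 for kappa and from -1.54 to -0.33 for lambda, and in the 4 lambda and 3 Igkc probe sets the nodes lay on both sides of the pro-B samples.

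In the 230238 pre-B line with Ebf1-Engrailed all 3 Igha probe sets rose, and 2 of 11 Ighm and 2 of 29 kappa probe sets fell with none of either rising. The medians over those lists were -0.03 for Ighm and -0.06 for kappa. Of the 56 probe sets, 8 were called (14.3%), against 8.84% of all probe sets, with 4 higher and 4 lower (5.13% and 3.72% of all probe sets). They were 5 of 18 constant, 2 of 26 variable and 1 of the 4 Igk locus probe sets. The median change was -0.03 over the members and -0.02 over all probe sets. At an unadjusted p under 0.05 there were 16. Of the 5 Ebf1 probe sets 4 fell, with log2 changes of -1.77 to -1.501. The fit behind these counts did not use the replicate numbers. With those numbers as a block 11 members were called, 4 higher and 7 lower, and the added calls were the 3 Igkc probe sets.

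Igha 1425763_x_at stood at 0.52, 0.49 and 0.91 in Ebf1-Engrailed samples 1, 2 and 3, against -0.49, -0.64 and -1.18 in empty vector samples 1, 2 and 3. The groups did not overlap, and the log2 change was 1.41 ± 0.20 (limma adjusted p = 0.00753, n = 3 and 3), or 2.66-fold higher. Igha 1421653_a_at stood at 0.51, 0.41 and 0.69 with Ebf1-Engrailed, against -0.47, -0.41 and -1.48 with empty vector, a change of 1.33 ± 0.28 (adjusted p = 0.0308). Igha 1429381_x_at changed by 0.76 ± 0.17 (adjusted p = 0.0398). In each of these 3 the lowest value was that of empty vector sample 3.

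The only variable probe set that rose was Ighv14-2 1455530_at, at 0.44, 0.37 and 0.47 with Ebf1-Engrailed, against -0.95, -0.38 and -0.37 with empty vector (log2 change 0.99 ± 0.16, adjusted p = 0.0127). Ighm 1427351_s_at stood at -0.72, -0.74 and -0.27 with Ebf1-Engrailed, against 1.12, 0.93 and 0.27 with empty vector, a change of -1.35 ± 0.24 (adjusted p = 0.0162). Ighm 1427329_a_at stood at -0.84, -0.75 and -0.21, against 0.44, 0.21 and 0.33, a change of -0.92 ± 0.18 (adjusted p = 0.0206). Neither pair of groups overlapped, and Ebf1-Engrailed sample 3 was nearest to the controls in both.

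Ighm 1452535_at (-0.40 ± 0.12, adjusted p = 0.0996) and 1425385_a_at (0.01 ± 0.10, adjusted p = 0.975) were not called. Nor were the Ighg3 probe sets 1427503_at (-0.30 ± 0.18, adjusted p = 0.388), 1447998_at (-0.28 ± 0.11, adjusted p = 0.218) and 1426199_x_at (0.10 ± 0.12, adjusted p = 0.7). The 4 lambda probe sets changed by -0.22 to -0.07, with none called and none at an unadjusted p under 0.05.

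Among kappa probe sets, Igk 1425738_at stood at -0.45, -0.49 and -0.30 with Ebf1-Engrailed, against 0.30, 0.34 and 0.38 with empty vector, with narrow groups that did not overlap (log2 change -0.75 ± 0.09, adjusted p = 0.00373). Igkv8-30 1452463_x_at stood at -0.11, -0.27 and -0.17 with Ebf1-Engrailed, against 0.59, 0.61 and 0.11 with empty vector (-0.62 ± 0.15, adjusted p = 0.0488). For Igkv8-30 empty vector sample 3 was the control closest to the Ebf1-Engrailed samples, and the call lies at the threshold. Igha 1425763_x_at and Igk 1425738_at were called in each of 6 fits without 1 sample, and the other 6 probe sets missed the threshold in 2 to 5 of those fits, at adjusted p-values up to 0.183.

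The 3 Igkc probe sets depended on the samples numbered 3. For 1427660_x_at the values were -0.11, -0.10 and -0.26 with Ebf1-Engrailed, against 1.45, 1.81 and 0.10 with empty vector, a change of -1.28 ± 0.40 that was not called (adjusted p = 0.111). For 1452417_x_at they were 0.09, -0.26 and -0.44, against 1.68, 2.00 and -0.09, a change of -1.39 ± 0.51 (adjusted p = 0.166), and 1427455_x_at changed by -0.65 ± 0.20 (adjusted p = 0.11). With the replicate number as a block all 3 were called (adjusted p = 0.0361 for 1427660_x_at, 0.0458 for 1452417_x_at and 0.00917 for 1427455_x_at), and the count of called members was 11. Without both samples numbered 3 they were called as well, at -1.74 for 1427660_x_at (adjusted p = 0.00101), -1.92 for 1452417_x_at (adjusted p = 0.00135) and -0.72 for 1427455_x_at (adjusted p = 0.00486), and the count was 12. These names were chosen after their values were seen.

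**Figure D4:**
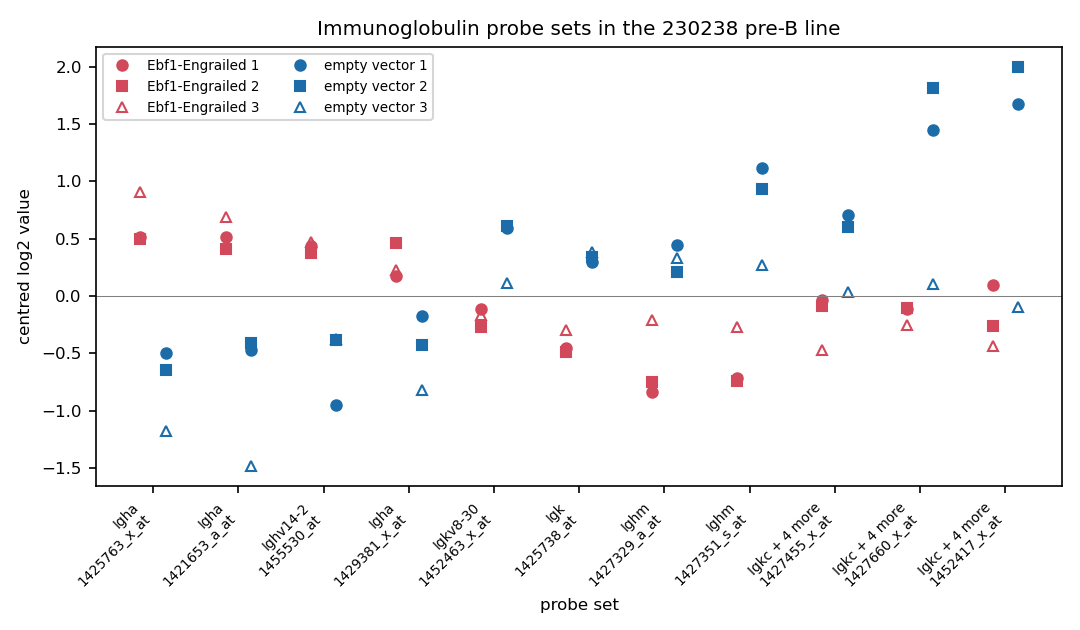
Centred log2 values of 11 immunoglobulin probe sets in 3 Ebf1-Engrailed samples (red, left of each pair) and 3 empty vector samples (blue, right) of the 230238 line, with the marker shape giving the replicate number. Igha and Ighv14-2 are higher with Ebf1-Engrailed, and in the Igkc probe sets empty vector samples 1 and 2 lie at 0.60 to 2.00 while sample 3 lies between -0.09 and 0.10.

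Marker genes of other cell types moved in the same comparison, in which 5.13% of all probe sets rose and 3.72% fell. Of 26 mature B-cell probe sets 9 rose and 2 fell, of 23 T-cell probe sets 3 rose, with the T-cell adaptor gene Lat at 3.57 ± 0.22, and of 14 myeloid probe sets 2 rose, the Fc receptor gene Fcgr3 (2.69 ± 0.38) and Cd68 (2.16 ± 0.39). Of 19 plasma cell probe sets 5 fell. Mean myeloid values were 0.218 to 0.303 with Ebf1-Engrailed, against -0.240 to -0.161 with empty vector. Their part in the immunoglobulin results was not tested.

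After activation of Ebf1-ER in Ebf1-/- cells, Igha and the same pair of Ighm probe sets were lower than at 0 h at every later time, and few light chain probe sets were called. At 6 h, 9 of the 56 probe sets were called (16.1%), against 28.9% of all probe sets, with 4 higher and 5 lower (14.2% and 14.7% of all). At 12 h there were 8 (3 higher and 5 lower), against 32.4% of all probe sets (15.4% higher and 17% lower), and at 24 h there were 8 (3 higher and 5 lower), against 32.3% (16% higher and 16.2% lower). The share of immunoglobulin probe sets called was thus below the background at each time. The 3 comparisons share the 2 arrays at 0 h, which are also the only ones without 4-hydroxytamoxifen, so the effect of Ebf1 and that of the drug cannot be told apart against 0 h.

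Igha 1421653_a_at stood at 0.84 and 0.94 at 0 h, at -0.37 and -0.22 at 6 h, at -0.08 and -0.13 at 12 h and at 0.08 and 0.26 at 24 h. The later arrays all lay below both arrays at 0 h, with the lowest at 6 h. Against 0 h the log2 change was -1.19 ± 0.10 at 6 h (adjusted p = 0.000114), -0.997 ± 0.103 at 12 h (adjusted p = 0.000208) and -0.72 ± 0.10 at 24 h (adjusted p = 0.00112).

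Igha 1425763_x_at changed by -0.79 ± 0.09, -0.83 ± 0.09 and -0.68 ± 0.09 at 6, 12 and 24 h against 0 h (adjusted p = 0.000508, 0.000323 and 0.000971), and Igha 1429381_x_at by -0.58 ± 0.10, -0.56 ± 0.10 and -0.41 ± 0.10 (adjusted p = 0.00384, 0.00405 and 0.0169). Ighm 1427329_a_at stood at 0.69 and 0.70 at 0 h, and all later arrays lay between -0.09 and 0.04. Its change was -0.73 ± 0.09, -0.76 ± 0.09 and -0.68 ± 0.09 at 6, 12 and 24 h (adjusted p = 0.000486, 0.000321 and 0.0006). Ighm 1427351_s_at stood at 0.46 and 0.53 at 0 h and between -0.22 and 0.10 later, with changes of -0.59, -0.67 and -0.43 (adjusted p = 0.00238, 0.00103 and 0.00929).

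Ighg3 1427503_at moved the other way. It stood at -0.36 and -0.22 at 0 h, 0.24 and 0.26 at 6 h, 0.07 and 0.10 at 12 h and -0.07 and -0.18 at 24 h. It was above 0 h by 0.54 ± 0.09 at 6 h (adjusted p = 0.00305) and by 0.37 ± 0.09 at 12 h (adjusted p = 0.0163), and at 24 h the change of 0.16 ± 0.09 was not called (adjusted p = 0.236). The other Ighg3 probe sets named above gave changes of -0.06 to 0.18 against 0 h at any time, with none called. Of the other Ighm probe sets, 1425385_a_at and 1452535_at were not called at any time, and 1425247_a_at was called at 24 h alone (0.31 ± 0.10, adjusted p = 0.041).

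Igk 1425738_at stood at -0.49 and -0.60 at 0 h and between -0.21 and 0.14 at all later times, with changes of 0.51 ± 0.13, 0.57 ± 0.13 and 0.59 ± 0.13 at 6, 12 and 24 h (adjusted p = 0.0191, 0.0105 and 0.00892). The probe set 1427576_at, for Igkv6-14, Igkv6-23 and Igkv8-19, rose by 0.37 ± 0.10 at 6 h (adjusted p = 0.026) and 0.31 ± 0.10 at 12 h (adjusted p = 0.0433), and Igkv14-111 1451951_at by 0.61 ± 0.19 at 6 h (adjusted p = 0.0476). In lambda, 1424931_s_at for Iglc1 and Iglv1 stood at -0.22 and -0.05 at 0 h and at 0.27 and 0.48 at 24 h, a change of 0.51 ± 0.11 (adjusted p = 0.00958). The 3 Igkc probe sets were not called at any time.

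Igha 1421653_a_at, Igha 1425763_x_at and Ighm 1427329_a_at were called at all 3 times in each of 8 fits without 1 array. Igkv14-111 1451951_at missed the threshold in 6 of those fits, 1427576_at in 4 at 6 h and in 8 at 12 h, and Ighm 1425247_a_at in 7. Igk 1425738_at missed it in 2, 3 and 1 of the 8 at 6, 12 and 24 h, Igha 1429381_x_at in 4 at 24 h, Ighg3 1427503_at in 3 at 12 h, Iglc1 1424931_s_at in 2 at 24 h and Ighm 1427351_s_at in 1 at 24 h, without array 1 of 24 h. Quantile normalization ended the Igha calls at 24 h (1421653_a_at -0.24, adjusted p = 0.298, and 1425763_x_at -0.34, adjusted p = 0.069) and those of Igk 1425738_at at 6, 12 and 24 h (adjusted p = 0.351, 0.182 and 0.16). It also ended those of Igha 1429381_x_at at 6, 12 and 24 h (adjusted p = 0.0572, 0.0669 and 0.305), of Ighm 1427351_s_at at 24 h (-0.20, adjusted p = 0.242) and of Ighg3 1427503_at at 12 h (adjusted p = 0.0891). Ighm 1427329_a_at was called at each time under it.

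**Figure D5:**
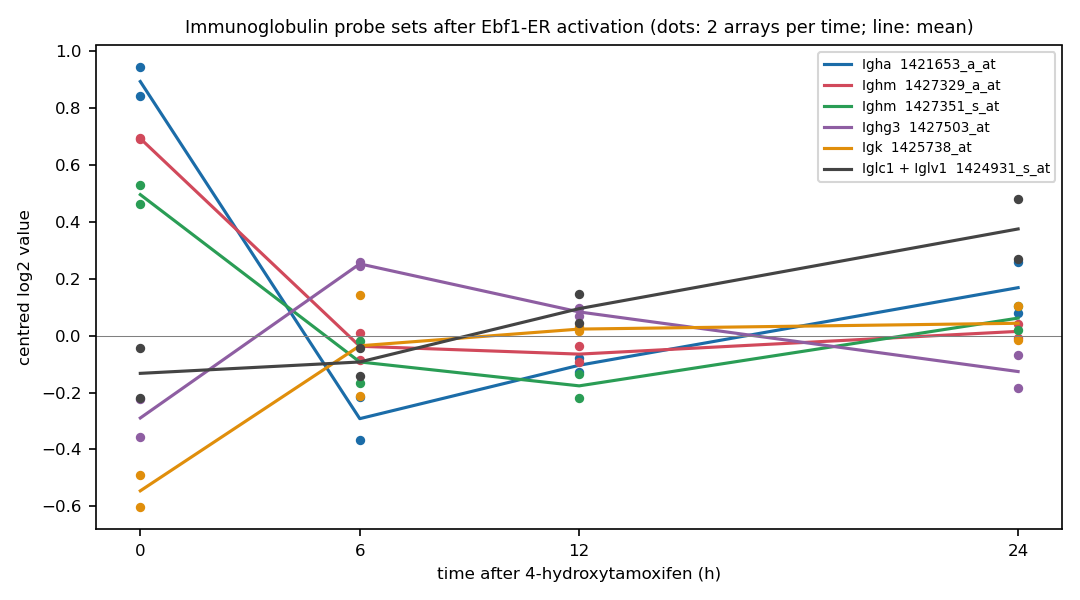
Centred log2 values of 6 immunoglobulin probe sets at 0, 6, 12 and 24 h after 4-hydroxytamoxifen in Ebf1-/- fetal liver cells carrying Ebf1-ER, with dots for the 2 arrays per time and lines through their means. Igha and both Ighm probe sets lie highest at 0 h, Igk 1425738_at lies lowest there, and the Iglc1 probe set is highest at 24 h.

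Between 24 h and 6 h, which both had the drug, 1 of the 56 probe sets was called, against 6.13% of all probe sets (3.31% higher and 2.81% lower), and 5 had an unadjusted p under 0.05. It was Igha 1421653_a_at, higher at 24 h by 0.46 ± 0.10 (adjusted p = 0.043), and the call was lost whenever any 1 array of the course was left out. The other Igha probe sets changed by 0.12 ± 0.09 (1425763_x_at, adjusted p = 0.559) and 0.17 ± 0.10 (1429381_x_at, adjusted p = 0.434), and Ighg3 1427503_at by -0.38 ± 0.09 (adjusted p = 0.0562).

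Marker lists also differed at 0 h. Against 0 h, 14.2% of all probe sets were higher and 14.7% lower at 6 h, and 16% and 16.2% at 24 h. The mean of 23 T-cell probe sets was 0.396 and 0.473 at 0 h and between -0.124 and 0.023 at later times, with 9 lower and 1 higher at 6 h, and Trat1, a T-cell receptor adaptor, changed by -2.79 ± 0.17. The mean of 21 stromal probe sets was 0.772 and 0.317 at 0 h and -0.312 and -0.069 at 24 h, with 7 lower and none higher at 24 h. The cultures stood on OP9 stromal cells. The part of these cells in the immunoglobulin values was not tested.

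The cell line and Ebf1-ER experiments share no samples. Of the 8 probe sets called with Ebf1-Engrailed, 6 (75%) were also called at all 3 times of Ebf1-ER, where 6 were called throughout. With the replicate block the share was 6 of 11 (54.5%), and of all 3989 probe sets called with Ebf1-Engrailed it was 36.8%. Of all probe sets on the array, 21.9% were called at all 3 times. The 6 are the Igha, Ighm and Igk probe sets named below, where Igha and Ighm have several each, so they are not independent readings. The 3 times share their 0 h arrays. Igha was higher with Ebf1-Engrailed and lower after Ebf1-ER, in all 3 probe sets. Igk 1425738_at was lower with Ebf1-Engrailed and higher after Ebf1-ER. Ighm 1427329_a_at and 1427351_s_at were lower in both. Over all 7 comparisons 45 of the 56 members were called at least once, 29 of them between lymph nodes alone, and 11 were called in none. The share of all probe sets called at least once was not counted, and the test between nodes alone passed 54.1% of them.

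The transcripts that accompany immunoglobulin chains in early B cells were read beside them. The counts below stand against 8.26% of all probe sets higher and 7% lower in the nodes against pro-B cells, 5.13% and 3.72% with Ebf1-Engrailed, 16% and 16.2% at 24 h of Ebf1-ER, and 3.31% and 2.81% between 24 h and 6 h. The surrogate light chain, which pairs with the mu chain before a light chain exists, is encoded by Igll1 and Vpreb1, and Cd79a and Cd79b encode the signalling partners of the receptor. Of 6 probe sets for these genes and Vpreb3, 5 fell with Ebf1-Engrailed, with a median of -2.21 (Igll1 1420176_x_at -4.14 ± 0.31, Vpreb3 -3.04 ± 0.33 and Vpreb1 -2.29 ± 0.44). After Ebf1-ER, 2, 2 and 3 rose at 6, 12 and 24 h, and Igll1 1420176_x_at was above 0 h by 0.74, 1.78 and 3.59. In the lymph nodes against pro-B cells none of the 6 was called (1420176_x_at -0.72 ± 0.31, adjusted p = 0.158), and all 6 passed the test between nodes, as 54.1% of all probe sets did.

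Of 14 probe sets for the V(D)J recombination machinery, 2 rose and 2 fell in the lymph nodes against pro-B cells (backgrounds of 8.26% and 7%). The recombinase gene Rag2 fell by 1.76 and the ligase gene Lig4 by 1.64, and Xrcc5, which encodes the Ku80 end-joining protein, rose by 1.75. With Ebf1-Engrailed both Xrcc4 probe sets rose and no other was called. At 24 h of Ebf1-ER 3 rose and 5 fell (backgrounds of 16% and 16.2%), with Dntt, the gene of the enzyme that adds untemplated bases at joints, changed by -3.31 ± 0.13 on 1449757_x_at, and between 24 h and 6 h Rag2 (1.196 ± 0.113) and Rag1 (1.01 ± 0.11) rose.

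Transcription factors of immunoglobulin enhancers and promoters were represented by 52 probe sets. The list includes Ebf1, altered in every experiment, and Pax5, heterozygous in the nodes. The counts below therefore contain the manipulated genes themselves. In the lymph nodes against pro-B cells 2 rose and 8 fell (backgrounds of 8.26% and 7%), with Tcf3, the E2A gene, at -1.56 ± 0.37 on 1427764_a_at. With Ebf1-Engrailed 5 rose and 18 fell, with a median of -0.40 against -0.02 over all probe sets, and these included Irf4, which acts on the kappa enhancer, at -2.62 ± 0.30 on 1421173_at, and Tcf3 at -1.63 ± 0.22 on 1427764_a_at. At 24 h of Ebf1-ER 5 rose and 22 fell (backgrounds of 16% and 16.2%), with Irf8 at -2.32 ± 0.11.

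Genes of immunoglobulin secretion and the J chain, which links IgM and IgA into polymers, gave 2 lower and 0 higher of 24 probe sets with Ebf1-Engrailed, Jchain at -1.09 ± 0.15 and Mzb1, an endoplasmic reticulum cofactor of antibody folding, at -0.84 ± 0.14. At 24 h of Ebf1-ER 6 rose and 5 fell, near the backgrounds of 16% and 16.2%, with Mzb1 above 0 h by 1.41 ± 0.09, and between 24 h and 6 h Mzb1 (1.43 ± 0.09) and Jchain (0.67 ± 0.09) rose. In the lymph nodes against pro-B cells the only calls were both Edem1 probe sets, lower by 0.64 and 0.59. Of 12 germinal centre and class switching probe sets, 1 rose and 4 fell in the nodes, with Basp1 at -2.58 ± 0.49. Ung, whose product removes uracil during switching, rose by 1.03 ± 0.26.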

How the data were processed

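RNA from a column kit was labelled with an amplification kit primed at the 3' end, per the labels' protocols, and hybridised to 32 Affymetrix arrays. The authors deposited 1 matrix of RMA values, per the submitters' processing notes. No source used here gives the log base, which was read as log2. Within that deposited log2 matrix the median of all 45101 probe sets was 0 (to within 1e-05) within each of the Ebf1-Engrailed and Ebf1-ER experiments, and of 10846 probe sets (35 of the 56 members) in the tumour experiment, so levels and background cannot be read. Precision is limited by how many arrays there are.

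Groups came from the sample labels, with node numbers read as 1 mouse each. Gene names came from the platform annotation (34958 with 1 symbol, 932 with several, 9211 with none), and 27 of the 28 gene identifiers of the members were in the gene table supplied. Each experiment was fitted over all probe sets by limma 3.58.1 (lmFit, eBayes; R 4.3.3), two-sided, with Benjamini-Hochberg adjustment over all 45101, and a call meant an adjusted p under 0.05. Each node's pair of arrays was averaged before the comparison with pro-B cells, and the F test between nodes used the 16 arrays. The fits were tested on simulated data.

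The members, lists and tests were chosen with earlier results of these data known. Named probe sets were the constant ones (at most 3 a gene, by variance over the tumour arrays), then up to 6 largest increases and decreases among those called, and between nodes the 10 widest others and the 2 highest in each node. The Ighm probe sets 1425247_a_at, 1425324_x_at, 1427351_s_at, 1427756_x_at and 1427870_x_at, Igkv6-14 1427860_at, Ighv14-2 in the nodes and the Igkc probe sets with Ebf1-Engrailed were added after their values were seen. Deviations from group means of samples numbered 1, 2 and 3 in the 230238 experiment correlated at 0.256, 0.387 and 0.481 over all probe sets, so those numbers were taken to pair the samples. The main fit of that experiment did not use this pairing, and the replicate block was run as an alternative. Alternatives changed the normalization, filter, probe set type, variance model, samples and block.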

Additional observations from a re-analysis of the deposited data

Results flagged for a closer look

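Of 30 named probe sets examined across the 8 lymph nodes, 7 had 1 node whose distance from its nearest neighbour was a large part of the whole range of the node means (Dixon's ratio above its critical value). Chance flags about 1 in 20 groups chosen without regard to their values. That rate does not apply to these, since many were named for a wide range, for a high value in 1 node or after their values were seen.

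LN 279 was the distant node in 4 of them. It stood at 1.78 on Ighm 1427329_a_at, with the next node at 0.19 (ratio 0.751), at 1.57 on Ighm 1427351_s_at, with the next at 0.05 (0.701), at 3.58 on Igkv6-20 1451962_at, with the next at 0.81 (0.649), and at 2.76 on Igkv6-14 1427860_at, with the next at 0.27 (0.699). LN 278 was distant at the low end on Ighm 1425247_a_at, at -0.66 with the next at -0.09 (0.592), and on Ighm 1427756_x_at, at -0.59 with the next at -0.14 (0.615). LN 277 was distant on Ighg3 1426199_x_at, at 0.85 with the next at 0.16 (0.621).

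Igha 1421653_a_at differed between 24 h and 6 h of the Ebf1-ER course. It was higher at 24 h by 0.46 on the log2 scale in limma's test of that difference (adjusted p = 0.043). No fit without 1 of the 8 arrays kept this call, and the other Igha probe sets were not called between these times.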

How the results depend on the processing

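No named result changed direction while called. Counts of called members were within 1.5 times the original under centring of each array and robust variance estimates. Quantile normalization gave 2 of 56 for the nodes against pro-B cells, 5, 4 and 2 for 6, 12 and 24 h against 0 h, and 3 for 24 h against 6 h. Keeping only the more variable probe sets gave 3 for 24 h against 6 h. Without _x_at and _s_at probe sets, which leaves 35 members, the counts were 2 for nodes against pro-B cells, 25 between nodes, 4 with Ebf1-Engrailed, and 5 and 4 at 12 and 24 h.

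Leaving out 1 sample at a time gave 5 to 10 for nodes against pro-B cells, 39 to 45 between nodes, 7 to 9 at 6 h, 5 to 8 at 12 h (5 without array 1 of 12 h), 5 to 8 at 24 h (5 without either array of 24 h), and 0 to 0 for 24 h against 6 h. With Ebf1-Engrailed it gave 2 to 11: 2 without Ebf1-Engrailed sample 1, 2 without sample 2, 5 without sample 3, 4 without empty vector sample 1, 3 without sample 2 and 11 without sample 3.

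The replicate block gave 7 for nodes against pro-B cells, 44 between nodes, 11 with Ebf1-Engrailed, 8, 7 and 7 at 6, 12 and 24 h, and 0 for 24 h against 6 h, where a fit of those 2 times alone also gave 0. Apart from the Igkc probe sets it added no call among the named probe sets of the 230238 line. In the Ebf1-ER course the numbers did not pair the arrays (correlations of -0.171 to 0.134), and a crossed pairing of 24 h and 0 h, chosen after seeing the data, gave 7. Causes were not tested.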
